A study of Homo sapiens with 4 samples.

Results

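Complex I of the respiratory chain was followed through the messenger RNA of its nuclear genes, taken as every gene whose symbol is NDUF followed by A, AB, AF, B, C, S or V and a number. The rule found 46 of the 60614 gene IDs in the count tables, 38 named as subunits and 8 as assembly factors (NDUFAF1 to NDUFAF8). The libraries came from DU145, an established human prostate cancer cell line, and were compared by the genotype of SPOP, the substrate-binding subunit of a CUL3 ubiquitin ligase. The SPOP-F133V group and the wild-type SPOP group held 2 RNA sequencing libraries each. All cells were grown in EMEM medium with fetal bovine serum and antibiotics, and no drug or time point is named. How the mutant protein was introduced, and whether the mutant cells are 1 clone or a pool, is not stated in the labels. The labels do not say that replicates were separate cultures, so each p-value reflects variation among these 4 libraries alone, and that variation may be technical.

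Complex I oxidises NADH, passes the electrons along a chain of iron-sulfur clusters to ubiquinone, and pumps protons across the inner mitochondrial membrane. Its matrix arm carries the redox centres and its membrane arm carries the pumps, whose central subunits are encoded by mitochondrial DNA and are not analysed here. Core subunits do the chemistry, accessory subunits surround and stabilise them, and assembly factors help to build the complex but are absent from the finished enzyme.

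Each library gave between 35173245 and 39642063 reads assigned to genes. Levels are given as CPM, counts scaled to a common library size with edgeR's TMM factors, in the order F133V replicates 1 and 2, then wild-type replicates 1 and 2. SPOP itself, a transcript that the labels do not say was deleted, was at 1171.2 and 1150.6 CPM in F133V and at 844 and 906 in wild-type, and these counts cannot tell the alleles apart. Of 5 epithelial markers all 5 were called higher in F133V before the GC adjustment described below, where 27.2% of all tested genes were. With the offset for the principal transcript, also described below, not all 5 were called. Their summed levels were 2241.7 and 2440.5 CPM against 1834.5 and 1833.2. The prostate luminal markers KLK3 and KLK2 were at 0 in all 4 libraries. The 5 hematopoietic markers summed to 0.0567 to 0.196 CPM. The 5 fibroblast and endothelial markers summed to 7.68 and 8.19 CPM in F133V and to 6.19 and 6.42 in wild-type, with DCN at 0. Nearly all of that was COL1A1, at 7.17 and 7.54 CPM against 5.78 and 6.19 (edgeR adjusted p = 0.0288), and VWF, at 0.300 and 0.397 CPM against 0.102 and 0.056, was also called higher (edgeR adjusted p = 0.00302). The part of these markers in the results below was not tested.

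The background of the comparison was broad. Of 17539 genes tested with edgeR's quasi-likelihood test and Benjamini-Hochberg adjustment at 0.05, 54.8% were called, 27.2% higher and 27.6% lower in F133V. After the GC adjustment described here 52.1% were called. Upper-quartile scaling moved the all-gene median of the log2 fold change from 0.02 to 0.13 and the calls from 4763 higher and 4841 lower to 6462 higher and 3831 lower. Fold changes also followed the GC content of the transcript. Among genes above 4 CPM, those under 45% GC had a median log2 fold change of -0.44 and 74.3% were called lower, while those of 55% or more had a median of 0.24 and 59.7% were called higher. Each member was therefore tested in 3 fits: without adjustment, with an offset for GC content and length of the longest transcript (GC-adjusted), and with the same offset for the principal transcript. Not every value is printed below. An offset of this kind also removes any difference between genotypes that follows GC content.

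Subunit transcripts were, on balance, slightly more abundant in F133V before adjustment. All 46 members passed the filter on low counts. Of the 38 subunits, 15 rose, 2 fell and 21 missed the threshold in edgeR's quasi-likelihood test, against 27.2% and 27.6% of all tested genes. The median log2 fold change of the subunits was 0.14, where the subunits' median log2 level varied between libraries of a genotype with an SD of 0.0257. All tested genes had a median of 0.02, with quartiles of -0.33 and 0.31. Summed over the 38 genes, the level was 2483.6 and 2564.4 CPM in F133V and 2347.7 and 2315.4 in wild-type, so the groups did not overlap (2524.0 ± 57.2 against 2331.6 ± 22.8 CPM, SD, n = 2). A total of 26 subunits were higher in both F133V libraries than in both wild-type libraries and 7 were lower in both, against 40.1% and 37.8% of tested genes. In a bulk sample, fewer cells of a kind and less RNA per cell cannot be told apart. The changes were small: 23.2% of all tested genes had a larger unadjusted change than any member.

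Most of the 15 higher subunit calls did not hold without wild-type replicate 1 or 2. A fit with a library left out takes its spread from the pair of the other genotype alone. That spread, as a biological coefficient of variation, was 6.49% and 6.48% without wild-type replicates 1 and 2, from the F133V pair. It was 1.71% without either F133V replicate, from the wild-type pair, and 4.64% with all 4 libraries. Before adjustment, fewer of all tested genes were called without a wild-type library, and more without an F133V library. The median of the subunits stayed between 0.087 and 0.137 in these 4 fits. Among the 21 called members of either direction, NDUFS7, NDUFA5 and NDUFAF4 passed in all 4. GC adjustment gave 16 subunits called higher and 7 lower, against 27.6% and 24.5% of all genes, and their median was 0.03. With the principal transcript the counts were 12 and 9, against 28.0% and 24.4%, with a median of 0.04. Most of the 7 lower calls of the GC-adjusted fit were lost without wild-type replicate 1 or 2, where fewer of all genes were lower too.

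**Figure D1:**
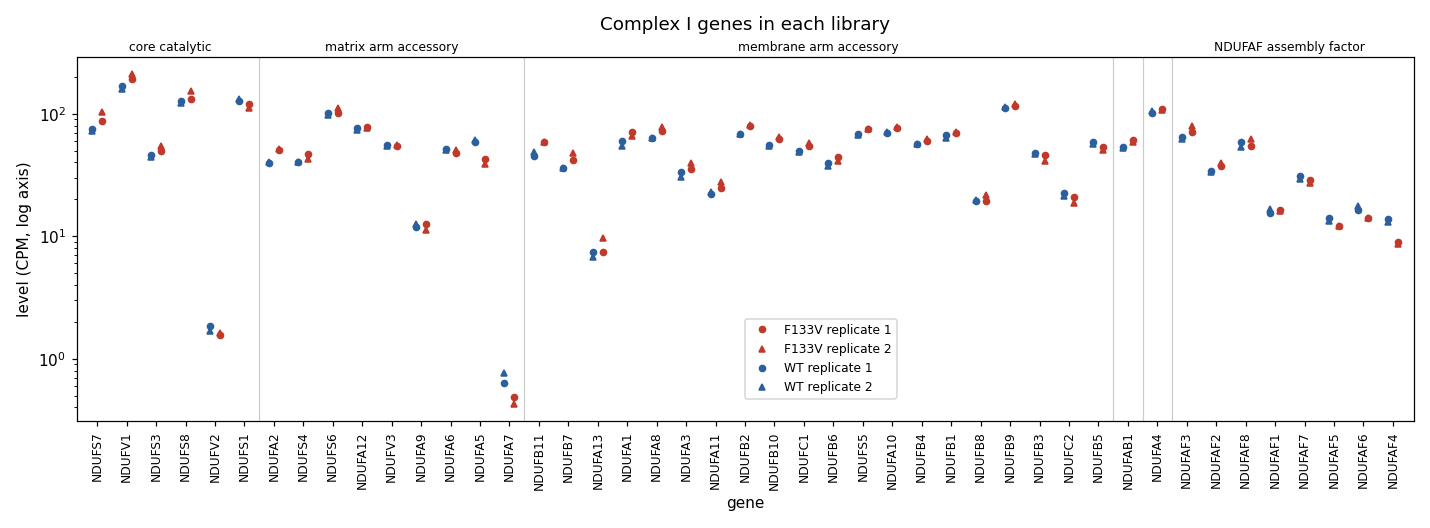
Levels of 45 of the 46 genes in each library, in CPM on a log axis, grouped by role and ordered within each role by the unadjusted change; each point is 1 library. In most genes the genotypes lie close together, and NDUFV2 and NDUFA7 lie apart below 2 CPM.

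The core catalytic subunits had 4 higher and 1 lower of 7 before adjustment, where 27.2% of all tested genes were higher and 27.6% lower. They had 2 higher and 1 lower with the GC offset, against 27.6% and 24.5% of all genes. With the principal transcript they had 1 higher and 2 lower, against 28.0% and 24.4%. NDUFS7, which carries the last iron-sulfur cluster before ubiquinone, lies on chromosome 19, 1383527 to 1395589 (GRCh38, plus strand). It was at 87.5 and 103 CPM in F133V and at 75.3 and 72.8 in wild-type, a log2 fold change of 0.37 ± 0.07 (SE; edgeR adjusted p = 3.23e-04). Both F133V libraries were above both wild-type libraries, and the F133V libraries differed from each other more than the wild-type ones did. The GC-adjusted value was 0.11 (edgeR adjusted p = 0.023) and the principal-transcript value was -0.03 (edgeR adjusted p = 0.593), so the direction did not hold in every fit. Of the exon bases of NDUFS7, 49.12% overlap AC005329.1 and AC005329.3 on the other strand. These had 34 to 80 and 2 to 9 reads per library.

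NDUFV1, the subunit that binds NADH and the flavin, was at 193 and 212 CPM in F133V against 169 and 160. Its log2 fold change was 0.30 ± 0.06 (edgeR adjusted p = 3.67e-04), and 0.03 after GC adjustment (edgeR adjusted p = 0.478). NDUFS3 and NDUFS8, neighbours in the ubiquinone module, rose by less, with log2 fold changes of 0.19 each (edgeR adjusted p = 0.0284 and 0.0267). NDUFS3 was at 49.8 and 54.0 CPM against 46.2 and 44.6, and NDUFS8 at 132 and 152 against 126 and 123. The GC-adjusted values of these genes were -0.05 and -0.06, neither called (edgeR adjusted p = 0.352 and 0.207), and with the principal transcript NDUFS8 was called lower, at -0.17 (edgeR adjusted p = 7.25e-05).

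NDUFS1, the largest core subunit and a carrier of iron-sulfur clusters at the NADH end, went the other way before adjustment. It was at 119 and 111 CPM in F133V against 127 and 131, a log2 fold change of -0.16 ± 0.06 (edgeR adjusted p = 0.0312). Its transcript is 42.1% GC, and the GC-adjusted fit called it higher, at 0.28 (edgeR adjusted p = 3e-08), as did the principal-transcript fit, at 0.29. NDUFV2, an iron-sulfur partner of NDUFV1, had only 57, 57, 73 and 60 reads, or 1.55 to 1.86 CPM, and 28.4% of its exon bases are shared with another annotated gene on its strand, so its level is uncertain.

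Among the 9 accessory subunits of the matrix arm, 1 rose and 1 fell before adjustment, against 27.2% and 27.6% of all tested genes. NDUFA2, a small thioredoxin-like subunit of the NADH module (chromosome 5, 140638740 to 140647785, minus strand), rose in each of the 3 fits. It was at 50.2 and 51.1 CPM in F133V and at 39.7 and 40.1 in wild-type, 1.27-fold higher, with libraries of each genotype close together and no overlap. The log2 fold change was 0.34 ± 0.07 (edgeR adjusted p = 3.22e-04), 0.14 with the GC offset (edgeR adjusted p = 0.00901) and 0.16 with the principal transcript (edgeR adjusted p = 0.00376). Leaving out single libraries moved the unadjusted value only between 0.326 and 0.346, though the p reached 0.0503 without wild-type replicate 1. The GC-adjusted call was kept in 2 of the 4 fits with a library left out, over a range of 0.090 to 0.166. Some of its exon bases, 13.04%, overlap IK and TMCO6 on the other strand, and the labels do not say if counting was strand-specific.

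NDUFA5, a subunit of the ubiquinone module (chromosome 7, 123536997 to 123558255, minus strand), showed the largest called fall among the subunits before adjustment. It was at 42.7 and 38.5 CPM in F133V against 58.6 and 60.7, a fold of 0.68 and a log2 fold change of -0.56 ± 0.07 (edgeR adjusted p = 2.17e-06). The groups were well apart, and the value ran from -0.664 to -0.482 when single libraries were left out. The longest transcript of NDUFA5 had the lowest GC content among the members' longest transcripts, 35.04%, and the gene has 12 named pseudogenes. After GC adjustment it was called higher, at 0.16 (edgeR adjusted p = 0.00247), and with the principal transcript it missed the threshold, at 0.10 (edgeR adjusted p = 0.0637).

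The other 7 matrix-arm genes missed the threshold before adjustment. NDUFS4, an accessory subunit of the NADH module in which Leigh syndrome mutations are known, was at 46.9 and 42.6 CPM against 40.7 and 40.5, and with the GC offset its log2 fold change of 0.14 became 0.35 (edgeR adjusted p = 4.42e-08). NDUFA9, an NADPH-binding subunit, went from -0.04 to 0.28 (edgeR adjusted p = 0.00287). NDUFS6, a zinc-binding subunit, and NDUFA6, which binds the acyl carrier protein, were called lower after adjustment, at -0.11 and -0.13 (edgeR adjusted p = 0.0171 and 0.0164), and NDUFA6 missed the threshold with the principal transcript (edgeR adjusted p = 0.061). NDUFV3 was at 54.5 and 55.1 CPM against 55.6 and 54.6, with overlapping groups and log2 fold changes of -0.01 and 0.00 in the first 2 fits. NDUFA7 had 18, 15, 25 and 27 reads, the lowest of the members, and 32.3% of its exon bases are shared with another gene on its strand. Its log2 fold change of -0.60 ± 0.31 missed the threshold (edgeR adjusted p = 0.109) and the GC-adjusted value was -0.90 (edgeR adjusted p = 0.0165), which rests on those few reads.

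Of the 20 accessory subunits of the membrane arm, 9 rose and 0 fell in edgeR's quasi-likelihood test without adjustment, where at an adjusted p of 0.05 27.2% of genes were higher and 27.6% lower. Their summed level was 1085.5 and 1109.1 CPM in F133V against 1000.7 and 987.0, and the median log2 fold change was 0.17. The called genes were NDUFA1, NDUFA3, NDUFA8, NDUFA11, NDUFC1, NDUFB2, NDUFB7, NDUFB10 and NDUFB11, and their log2 fold changes lay between 0.19 and 0.33. Nearly all of these 9 calls were lost without wild-type replicate 1 or 2, where the F133V pair alone set the spread. Fewer of all tested genes were called there too. Without either F133V replicate, more of the 20 genes and more of all tested genes were called. After GC adjustment the counts were 8 higher and 3 lower, against 27.6% and 24.5% of all genes, with a median of 0.03.

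NDUFB11, a single-pass membrane subunit encoded on the X chromosome, had the largest change of the arm before adjustment. It was at 59.2 and 58.4 CPM in F133V against 45.2 and 48.4, a log2 fold change of 0.33 ± 0.07 (edgeR adjusted p = 4.77e-04). The GC-adjusted value was 0.03 (edgeR adjusted p = 0.650), and 44.9% of its exon bases overlap RBM10 on the other strand. NDUFB7, which faces the intermembrane space, was at 41.6 and 47.7 CPM against 36.1 and 36.0, a log2 fold change of 0.31 (edgeR adjusted p = 0.00217). NDUFB7 has the highest GC content of the members' longest transcripts, 64.97%, and both adjusted fits called it lower, at -0.12 and -0.11 (edgeR adjusted p = 0.0364 and 0.0445). NDUFB10, also of the intermembrane-space side, reversed likewise, from 0.20 to -0.11 and -0.13.

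Only NDUFB2 and NDUFC1 among these 20 genes were called higher in all 3 fits. NDUFB2 was at 78.7 and 80.7 CPM against 68.6 and 68.8, with log2 fold changes of 0.21, 0.31 and 0.35 (edgeR adjusted p = 0.00846, 6.05e-08 and 4.99e-09). NDUFC1 was at 54.0 and 58.0 CPM against 49.2 and 49.1, with log2 fold changes of 0.19, 0.16 and 0.19 (edgeR adjusted p = 0.0294, 0.00361 and 5.55e-04). In neither gene did the groups overlap, but without wild-type replicate 1 or 2 neither unadjusted call held (nor did NDUFC1 with the replicate block, edgeR adjusted p = 0.0517, or with DESeq2, adjusted p = 0.11), with p reaching 0.218 for NDUFB2 and 0.326 for NDUFC1. With the GC offset NDUFB2 passed without any single library, whereas NDUFC1 passed in 2 of 4 such fits. A stretch of NDUFB2 amounting to 27.9% of its exon bases overlaps BRAF on the other strand. NDUFC1 shares 18.5% of its exon bases with MGARP on its own strand, a gene with 1 to 9 reads per library.

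Several membrane-arm genes missed the threshold without adjustment and were called with it. NDUFB6 was at 44.6 and 41.3 CPM against 39.4 and 37.6, with an unadjusted log2 fold change of 0.16 (edgeR adjusted p = 0.0749) and adjusted values of 0.47 and 0.51. NDUFB4 had values of 0.12, 0.43 and 0.21, and NDUFA10, a nucleoside-kinase-like subunit, 0.13, 0.17 and 0.21. Upper-quartile scaling without a GC term also called these genes higher, at 0.27 for NDUFB6, 0.23 for NDUFB4 and 0.24 for NDUFA10 (edgeR adjusted p = 0.00334, 0.00644 and 0.00328). That scaling moved the all-gene median from 0.02 to 0.13 and called 6462 of all 17539 tested genes higher. It likewise called NDUFS6 higher, at 0.22 (edgeR adjusted p = 0.00729), a gene that both adjusted fits called lower. NDUFB5 missed the threshold before adjustment, at 53.1 and 51.0 CPM against 58.7 and 56.8, and was called higher by the adjusted fits, at 0.35 and 0.28.

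For several members the transcript chosen to represent the gene changed the adjusted call. These were NDUFS7, NDUFS8, NDUFA5, NDUFA6, NDUFA11, NDUFB1 and NDUFB9, of which the last are described here. The longest transcript of NDUFB1 is 39.91% GC and its principal transcript 47.54%; the adjusted log2 fold change was 0.53 with the first (edgeR adjusted p = 1.82e-12) and 0.02 with the second (edgeR adjusted p = 0.740). NDUFB1 itself was at 69.0 and 70.5 CPM against 66.7 and 63.7. NDUFB9, at 116 and 119 CPM against 111 and 113, was called higher with its longest transcript of 45.67% GC, at 0.15, and lower with its principal transcript of 53.73%, at -0.16 (edgeR adjusted p = 7.69e-04 and 3.9e-04). These libraries differ by a few CPM, and the calls in opposite directions come from the same counts.

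NDUFAB1 and NDUFA4 stand outside the arms in this grouping. NDUFAB1, the mitochondrial acyl carrier protein, was at 60.8 and 59.0 CPM against 53.5 and 52.9 and was called higher in all 3 fits, with log2 fold changes of 0.17, 0.11 and 0.14 (edgeR adjusted p = 0.0385, 0.0269 and 0.00594). The unadjusted call did not hold without wild-type replicate 1 or 2, nor with a block for the replicate number (edgeR adjusted p = 0.073). NDUFA4 carries the family name but is now placed in cytochrome c oxidase. It was at 109 and 107 CPM against 102 and 105, a log2 fold change of 0.06 (edgeR adjusted p = 0.444), and reached 0.48 with the GC offset (edgeR adjusted p = 3.83e-13) on a transcript of 40.38% GC.

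**Figure D2:**
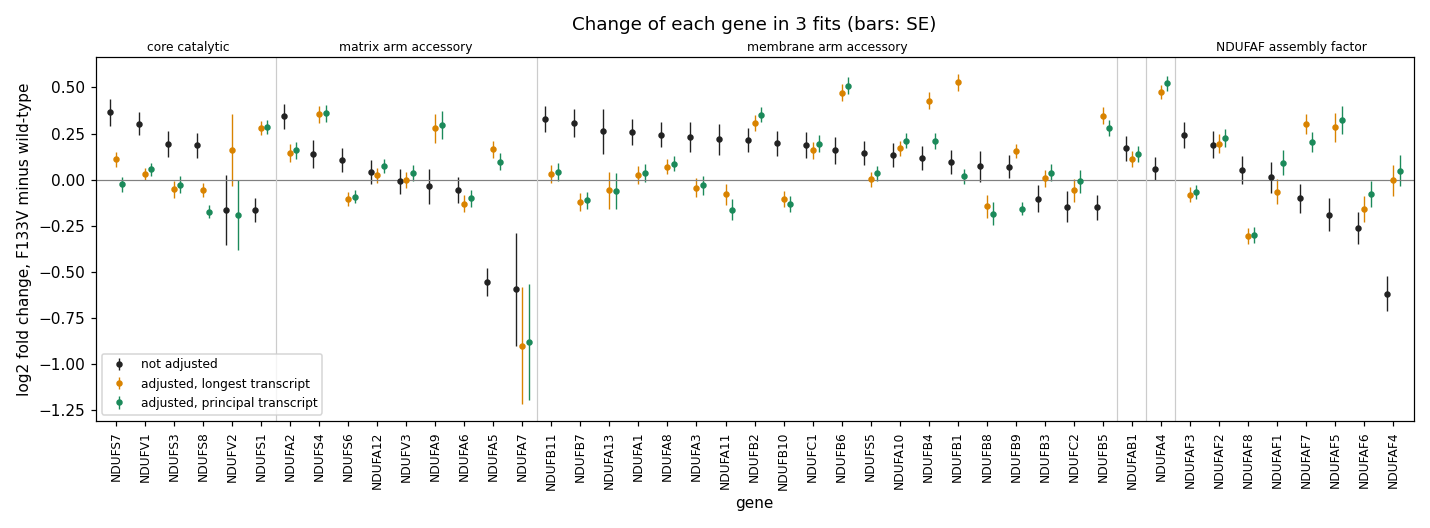
Log2 fold change (F133V minus wild-type) of 45 of the 46 genes in the 3 fits, with SE bars. Black points are unadjusted, orange use the longest transcript and green the principal transcript; NDUFA5 and NDUFAF4 lie near -0.6 before adjustment and at or above about 0 after it.

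Of the 8 NDUFAF assembly factors, 2 rose, 2 fell and 4 missed the threshold in the unadjusted edgeR fit, shares near the 27.2% and 27.6% of all tested genes. Their median log2 fold change was -0.04. Their summed level was 243 and 258 CPM in F133V and 248 and 239 in wild-type (251 ± 11 against 243 ± 6.36 CPM, SD, n = 2), so the groups overlapped. Neither higher call, and only the lower call of NDUFAF4, held without wild-type replicate 1 or 2, where fewer of all tested genes were called. After GC adjustment 3 were called higher (NDUFAF2, NDUFAF5 and NDUFAF7) and 1 lower (NDUFAF8), against 27.6% and 24.5% of all genes. The principal transcript gave the same calls for these 8 genes.

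NDUFAF4, which works with NDUFAF3 on the ubiquinone module, had the largest change of all 46 members before adjustment. The gene lies on chromosome 6, 96889313 to 96897881, minus strand. It was at 8.96 and 8.59 CPM in F133V against 13.9 and 13.1, a fold of 0.651 and a log2 fold change of -0.62 ± 0.10 (edgeR adjusted p = 1.46e-05). The groups were far apart, and the call held when any single library was left out, with values from -0.682 to -0.576. At 36.35% GC, it had an adjusted value of 0.00 (edgeR adjusted p = 0.985). Its partner NDUFAF3, of 63.97% GC, was at 71.1 and 78.9 CPM against 64.3 and 62.4, a log2 fold change of 0.24 (edgeR adjusted p = 0.00613) that became -0.08 (edgeR adjusted p = 0.0948).

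NDUFAF2, a relative of NDUFA12 that acts late in assembly of the NADH module (chromosome 5, 60945129 to 61153037, plus strand), was the only assembly factor of the 8 called higher in all 3 fits. It was at 37.5 and 39.5 CPM in F133V against 34.2 and 33.3. The log2 fold changes were 0.19, 0.20 and 0.23 (edgeR adjusted p = 0.0341, 0.00133 and 2.87e-04). The unadjusted call did not hold without either wild-type library, nor with the replicate block (edgeR adjusted p = 0.0588), while the GC-adjusted call held in all 4 fits with a library left out. NDUFAF6 was at 14.1 and 14.1 CPM against 16.3 and 17.6, a log2 fold change of -0.26 (edgeR adjusted p = 0.0155) and -0.16 with the GC offset (edgeR adjusted p = 0.0576). With the principal transcript its value was -0.08 (edgeR adjusted p = 0.37).

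The modifying enzymes NDUFAF5, which hydroxylates NDUFS7, and NDUFAF7, a protein methyltransferase, gave lower values in F133V before adjustment, below the threshold, and were called higher after it. NDUFAF5 went from -0.19 to 0.28 (edgeR adjusted p = 0.082 and 0.00230) and NDUFAF7 from -0.10 to 0.30 (edgeR adjusted p = 0.275 and 1.09e-05). NDUFAF8, the partner of NDUFAF5, was at 54.3 and 61.9 CPM against 58.5 and 53.4, overlapping, with a log2 fold change of 0.05 (edgeR adjusted p = 0.579). The GC offset took it to -0.31 (edgeR adjusted p = 2.76e-07). NDUFAF1, which joins ECSIT and ACAD9 in an early membrane-arm complex, was at 16.3 and 16.2 CPM against 15.6 and 16.6 and was called in none of the 3 fits.

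The contrast of subunits with assembly factors was described as the mean log2 level of the 38 subunits minus that of the 8 NDUFAF genes in each library. It was 0.948 and 0.946 in F133V and 0.770 and 0.784 in wild-type, so on this mean the libraries of each genotype lay closer to each other than to the other genotype. A mean of 8 genes leans on single members, and NDUFAF4 alone changed by -0.62. The mean was not taken without NDUFAF4, nor after GC adjustment. The difference in median log2 fold change was 0.18 before adjustment, and taken on medians the contrast varied more between libraries of a genotype, with an SD of 0.0482. It was 0.06 with the GC offset and -0.03 with the principal transcript, a change of sign. The median GC content was 48.3% for subunits and 45.5% for assembly factors, and the part of GC content in the contrast was not tested beyond these fits.

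Among the members, as among all genes, fold changes rose with GC content, but less steeply at the low end. Across the 46 genes, which share the 4 libraries, the unadjusted log2 fold change correlated with GC content with a Pearson r of 0.583 and a Spearman rho of 0.664. Of the 15 members under 45% GC, 1 was called higher and 3 lower, with a median of -0.10, where 4.68% of all such genes were higher and 74.3% lower, with a median of -0.44. Of the 13 members of 55% GC or more, 10 were called higher and 0 lower, where 59.7% of all such genes were called higher and 2.9% lower.

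After adjustment the order ran the other way. The correlation with GC content became -0.601 (Pearson) and -0.703 (Spearman) across the same 46 genes. Of the 15 low-GC members 12 were then called higher and 0 lower, with a median of 0.30, against 33.6% and 32.8% of all genes in that range. Of the 13 high-GC members 1 was called higher and 4 lower, against 27.3% and 33.0%. The members of low GC content thus lay above the all-gene trend, a description that uses the same 4 libraries as the trend itself.

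**Figure D3:**
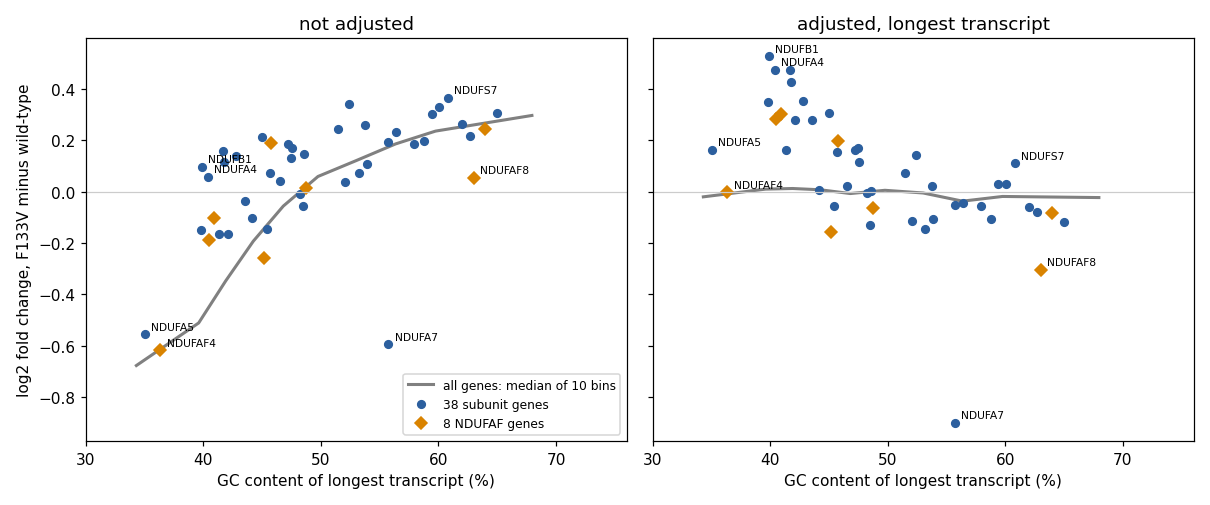
Log2 fold change of the 46 genes against GC content of the longest transcript (%), before (left) and after (right) the offset; the grey line joins medians of all genes in 10 bins. Before adjustment the members rise with GC content (rho 0.664) and after it they descend (rho -0.703), with NDUFA7, of very few reads, apart in each panel.

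Across the 3 fits, 5 of the 46 members were called higher each time (NDUFA2, NDUFB2, NDUFC1, NDUFAB1 and NDUFAF2) and 0 lower each time. Calls in opposite directions were given to 7 members: NDUFS1, NDUFS8, NDUFA5, NDUFA11, NDUFB7, NDUFB9 and NDUFB10. A total of 25 members changed sign between fits, and 8 were called in none (NDUFV2, NDUFV3, NDUFA12, NDUFA13, NDUFC2, NDUFS5, NDUFB3 and NDUFAF1). In the single fits 27.2%, 27.6% and 28.0% of all genes were called higher. Counts across the 3 fits were not made over all genes, so they show no trait particular to the members.

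Levels per kilobase of principal transcript spread widely among the members, subunits and assembly factors alike. In wild-type cells the highest were NDUFS8 at 158, NDUFB9 at 157, NDUFB1 at 124, NDUFS5 at 123 and NDUFA12 at 118 CPM per kilobase. The lowest were NDUFA7 at 1.16, NDUFA9 at 1.46, NDUFV2 at 1.90, NDUFAF5 at 2.48 and NDUFAF4 at 5.62. Among assembly factors NDUFAF8 was highest at 91.0, above most subunits. Levels per kilobase depend on the transcript taken for each gene, which for NDUFA9 was 8363 bases long. NDUFA9 also shares 10.6% of its exon bases with other annotated genes on its strand, so its level is uncertain, as are those of NDUFA7 and NDUFV2.

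Further proteins assist complex I assembly without the NDUFAF name, and 13 were listed. Of these, 3 rose, 3 fell and 7 missed the threshold before adjustment, again near the all-gene shares of 27.2% and 27.6%. LYRM2 fell most, from 39.5 and 39.4 CPM in wild-type to 24.6 and 22.2 in F133V, a log2 fold change of -0.75 ± 0.08 (edgeR adjusted p = 8.63e-08), and it stayed lower with the GC offset, at -0.20 (edgeR adjusted p = 0.00142). NUBPL, which delivers iron-sulfur clusters, was at 36.1 and 34.5 CPM against 53.5 and 53.5, with log2 fold changes of -0.60, 0.01 and -0.16 in the 3 fits (edgeR adjusted p = 5.43e-07, 0.885 and 0.00525). TMEM126B, a membrane partner of NDUFAF1, went from -0.41 to 0.13 (edgeR adjusted p = 1.18e-04 and 0.0248). All 3 of these unadjusted calls held without any single library, but the GC-adjusted call of TMEM126B held in 0 of those 4 fits, with p up to 0.231.

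The higher calls of that list were ECSIT, OXA1L and DMAC1. ECSIT was at 41.2 and 44.2 CPM against 34.3 and 34.1, a log2 fold change of 0.32 (edgeR adjusted p = 9.95e-04) that became 0.01 (edgeR adjusted p = 0.882). OXA1L, the inner-membrane insertase, had 0.23 and 0.16 (edgeR adjusted p = 0.00537 and 0.00112). DMAC1, a factor of the distal membrane arm, was at 43.2 and 44.4 CPM against 36.9 and 38.6, with 0.21 and, after adjustment, 0.63 (edgeR adjusted p = 0.0167 and 3.83e-13). None of the 13 was called higher before adjustment without wild-type replicate 1 or 2, where fewer of all tested genes were called. After GC adjustment 6 of the 13 were called higher and 3 lower, against 27.6% and 24.5% of all genes.

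A list of 10 regulators of respiratory genes was read in the same way, without a test of the list. Of the 10, PPARGC1A had 0 reads in every library and 9 were tested; 7 fell, 1 rose and 1 missed the threshold, against 27.6% of all genes lower and 27.2% higher. Their median log2 fold change was -0.26. GABPA, the DNA-binding subunit of an ETS-family factor, was at 26.6 and 22.5 CPM against 46.2 and 52.3, a fold of 0.499 with an SE of 0.09 on the log2 scale (edgeR adjusted p = 9.21e-09), with a log2 fold change of -0.33 after GC adjustment (edgeR adjusted p = 2.3e-06). TFAM, which packages and transcribes mitochondrial DNA, was at 35.9 and 30.9 CPM against 59.8 and 61.4, with -0.86 and -0.27 (edgeR adjusted p = 1.61e-08 and 7.51e-06). In each gene all F133V libraries lay below all wild-type ones, and the calls held without any single library in each of these 2 fits.

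TFB2M, a mitochondrial transcription factor, and the coactivators PPARGC1B and PPRC1 were also called lower in both fits. Their unadjusted log2 fold changes were -0.55, -0.26 and -0.21, and their adjusted ones -0.25, -0.23 and -0.39. YY1 had -0.19 and -0.16 (edgeR adjusted p = 0.00661 and 1.11e-04). GABPB1, the partner of GABPA, was called lower only before adjustment, at -0.57 and then -0.01 (edgeR adjusted p = 5.29e-06 and 0.896). ESRRA was called higher before adjustment, at 0.19, and lower after it, at -0.12 (edgeR adjusted p = 0.0349 and 0.0269). NRF1 was at 19.8 and 23.9 CPM against 21.9 and 23.3, overlapping, and was called in neither fit. Fewer of the 7 lower calls held without wild-type replicate 1 or 2, where fewer of all tested genes were called. The median of the regulators there was -0.277 and -0.255. The count was 4 with upper-quartile scaling, where 3831 of all 17539 tested genes were called lower. With the GC offset 7 were called lower, against 24.5% of all genes.

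**Figure D4:**
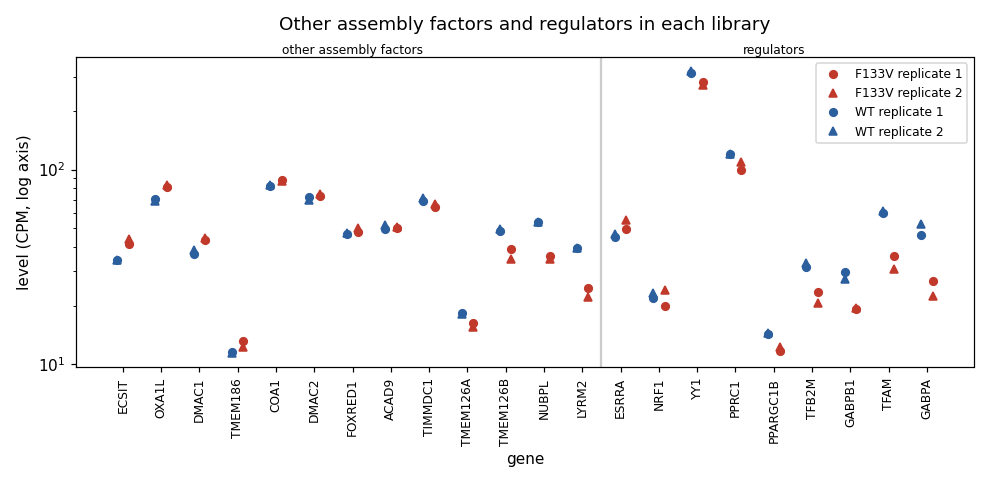
Levels of 13 other assembly factors and 9 regulators in each library, in CPM on a log axis. LYRM2, NUBPL, TFAM and GABPA show F133V libraries well below the wild-type ones, while ACAD9 and NRF1 overlap.

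Because GABPA and NRF1 bind promoters of respiratory genes, the bases before the start of each member were searched for their letters. RefSeq promoters (GRCh38.p14) were found for 39 of the 46 members, and the 250 bases before the start were read on both strands. An NRF1 match was GCGCA and GCGC with any base between them, an ETS match, the kind that GABPA binds, CCGGAAG, and a YY1 match AAGATGG. NRF1 letters were present for 5 members (12.8%, against 6.2% of 27305 genes), ETS letters for 7 (17.9% against 10.2%) and YY1 letters for 2 (5.13% against 4.49%). The ETS genes were NDUFA1, NDUFA13, NDUFB7, NDUFS1, NDUFS3, NDUFAF4 and NDUFAF8. Before adjustment 5 of these 7 were called, where 54.8% of all tested genes were, with NDUFA1, NDUFB7 and NDUFS3 higher and NDUFS1 and NDUFAF4 lower.

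A subunit and an assembly factor with the same ETS letters in their promoters are shown, with the match in capitals, 5′ to 3′ on the minus strand. They are the members with a single listed promoter and a match whose window holds no annotated exon. The NDUFAF4 window is chr6:96897892-96898141, with the match starting 147 bases before the start, and the NDUFB7 window is chr19:14572067-14572316, with the match 24 bases before it. A match of letters is a description and not a bound site.
NDUFAF4: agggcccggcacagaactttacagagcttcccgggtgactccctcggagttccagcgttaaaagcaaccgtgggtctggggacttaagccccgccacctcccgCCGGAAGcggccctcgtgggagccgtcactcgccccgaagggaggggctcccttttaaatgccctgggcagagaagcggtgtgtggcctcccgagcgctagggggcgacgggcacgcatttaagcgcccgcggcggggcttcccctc
NDUFB7: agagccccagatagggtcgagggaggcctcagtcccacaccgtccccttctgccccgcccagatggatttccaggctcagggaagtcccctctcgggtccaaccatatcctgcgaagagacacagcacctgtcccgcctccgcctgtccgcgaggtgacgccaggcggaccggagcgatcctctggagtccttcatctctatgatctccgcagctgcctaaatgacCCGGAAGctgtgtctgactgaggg
The same 7 letters stand before both genes, whose unadjusted log2 fold changes were -0.62 for NDUFAF4 and 0.31 for NDUFB7. The adjusted values were 0.00 and 0.05 for NDUFAF4, not called, and -0.12 and -0.11 for NDUFB7, called lower.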

How the data were processed

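The authors deposited raw counts of reads per gene for each of the 4 libraries, whole numbers that are not normalized. Per the submitters' processing notes, TopHat2 2.0.10 and HTSeq 0.6.0 were used with build hg38. Sources used here give neither the annotation release nor poly-A selection nor the strand setting. Overlapping genes, antisense ones included, therefore cannot be separated. The counter's 5 tally rows stayed out of library sizes and tests; reads with several alignments made up 13.6% to 16.6% of each table, reads over more than 1 gene 3.50% to 3.73% and reads over no gene 6.12% to 6.53%.

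The counts entered edgeR 4.0.16 (R 4.3.3) with filterByExpr, TMM, the quasi-likelihood F-test (two-sided) on genotype, and Benjamini-Hochberg adjustment over all tested genes at 0.05. The spread was shared over genes on 2 residual degrees of freedom, with a biological coefficient of variation of 4.64% (2.46% after the GC offset). For the GC-adjusted fits, the deviations of each library from the gene means were fitted by a smooth of GC content and length of a GENCODE 29 transcript (mgcv 1.9.3, basis dimension 8, genes with a mean log2 CPM above 2) and entered as an offset. The version with the APPRIS principal transcript was chosen after seeing the data. GENCODE 29 need not be the authors' release. In a simulation of this comparison on 17539 genes, 50 genes were changed at each size. At 1.5-fold edgeR found 50, at 1.25-fold 31 and at 1.1-fold 3. It called 6 of the 17339 genes left alone. The simulation changed few genes, gave every gene the same spread and held no GC trend. In the data 54.8% of tested genes were called and fold changes followed GC content. The simulated shares therefore do not give the recovery or the error rate of the data. Many member changes are of the smaller sizes.

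Alternatives were DESeq2 1.42.0, upper-quartile scaling, no filter on low counts, a replicate block and leaving out each library. The values of 1 member, and some marker genes, are not reported here one by one. Members, the gene lists and the tests were chosen with earlier results of these data known. List counts and medians are descriptions, with no test of a list. Replicate numbers are only names unless the labels pair them, which they do not.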

Additional observations from a re-analysis of the deposited data

How the results depend on the processing

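With DESeq2, 8 subunits were called higher, and of the NDUFAF genes 1 higher and 1 lower. Of all 17027 genes given an adjusted p there, 2955 were higher and 4008 lower. Upper-quartile scaling gave 26 subunits higher and 1 lower, 1 NDUFAF gene lower and 7 of the other assembly factors higher. Of all 17539 tested genes it called 6462 higher and 3831 lower. The subunit median was 0.246, and the NDUFAF median, at 0.066, changed sign. Relative to the all-gene median, which that scaling moved to 0.132, these medians shifted little. Without a filter on low counts, 1 NDUFAF gene was higher, where 4688 of all 30731 tested genes were.

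With the GC offset, 7 subunits and 1 NDUFAF gene were lower, against 24.5% of all genes. A total of 6 other assembly factors were higher, against 27.6% of all genes. The subunit median was 0.030 and its difference from the NDUFAF median 0.064. Among the members reversed in sign by the offset were NDUFS1 (0.279), NDUFS3 (-0.052), NDUFS8 (-0.057), NDUFS6 (-0.107), NDUFA5 (0.164), NDUFA9 (0.278), NDUFA3 (-0.044), NDUFA11 (-0.079), NDUFB5 (0.348), NDUFB7 (-0.119), NDUFB8 (-0.145), NDUFB10 (-0.107), NDUFAF3 (-0.082), NDUFAF5 (0.284), NDUFAF7 (0.303) and NDUFAF8 (-0.305). Taking the principal transcript in place of the longest reversed NDUFS7 (-0.026), NDUFB9 (-0.157), the NDUFAF median (0.071) and the difference (-0.034). In that fit 5 other assembly factors were lower, against 24.4% of all genes. Beyond the different GC values, the cause was not tested.

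Leaving out single libraries gave 2786 to 5225 genes higher, 2 to 20 subunits higher and 1 to 5 lower, 0 to 3 NDUFAF genes higher and 1 to 4 lower, and 0 to 4 other assembly factors higher and 3 to 5 lower. The subunit median ranged from 0.087 to 0.137 and the NDUFAF median from -0.099 to -0.048. With the GC offset as well, the counts again moved, over all genes and among the members. The medians were 0.014 to 0.066 for subunits and -0.056 to -0.009 for NDUFAF genes in those fits. NDUFA1 ranged from -0.109 to 0.103 there.

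The labels give the same replicate numbers in the 2 genotypes but no pairing, and the deviations of libraries numbered 1 correlated at -0.0531 over 11788 genes. A block for the replicate number left 13 subunits and 1 NDUFAF gene higher, where 4619 of all 17539 tested genes were. NDUFC1 (edgeR adjusted p = 0.0517), NDUFAB1 (0.073) and NDUFAF2 (0.0588) then missed the threshold. In the GC-adjusted fit the block changed 0 of 46 member calls. In the simulation, which was of the unadjusted fit, 3 of 50 genes changed 1.1-fold were recovered. NDUFV2 and NDUFA7 are limited by their reads.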

Other observations

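Besides the 46 genes, 63 annotated NDUF pseudogenes had rows in the tables. Of these 49 had 0 reads in all 4 libraries, and the sums were 97 and 90 reads in F133V and 77 and 86 in wild-type. NDUFV2P1 alone accounted for 81, 72, 68 and 78 of them, more than NDUFV2 itself in 3 of the 4 libraries. How reads are divided between that pair was not tested. NDUFA4L2, a hypoxia-responsive relative of NDUFA4, had 70 and 89 reads in F133V and 54 and 38 in wild-type. These raw reads did not overlap, where 40.1% of tested genes were higher in both F133V libraries by CPM. No fold change or test is given for it.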
